A study of Mus musculus with 12 samples.

Results

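The 10 genes described here handle iron and heme; they were chosen by name, and all 10 were found by symbol among the 24421 entries of the count table. They are the iron uptake genes Tfrc and Slc11a2, the plasma iron carrier Trf, the ferritin chains Fth1 and Ftl1, the export genes Slc40a1 and Cp, the iron sensor Ireb2, and the first enzymes of heme synthesis, Alas1 and Alas2. The study sequenced RNA from a shin muscle, the tibialis anterior, of 6 C57Bl/6 (WT) and 6 mdx/mTR males; both groups were 4 months old and no treatment is named. The mdx allele disrupts Dmd, the dystrophin gene, while mTR is a name for Terc, which encodes the RNA of telomerase. The labels give neither the telomerase genotype nor the number of generations bred without it. The labels name 6 samples in each group and no batch. They do not say that each sample is a separate mouse. The p-values set the group difference against the spread between these samples, taken as independent, and could be too small if samples shared a mouse.

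Cells take up iron as transferrin bound to its receptor, the product of Tfrc, and move it out of the endosome through DMT1, the product of Slc11a2. Iron not used at once is stored inside ferritin, a shell of heavy (Fth1) and light (Ftl1) chains. The only known cellular iron exporter is ferroportin (Slc40a1), and ceruloplasmin (Cp) oxidises the released iron so that transferrin can bind it. The iron regulatory proteins, one of them encoded by Ireb2, bind hairpins called iron-responsive elements in mRNA when iron is low. Binding in a 3′ untranslated region (3′ UTR) protects the Tfrc mRNA from decay, whereas binding in a 5′ UTR blocks translation, which mRNA counts do not measure. Muscle uses much iron in myoglobin and in the heme and iron-sulfur proteins of mitochondria.

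The iron-responsive elements found in the listed genes are shown because their place differs. They lie in the 3′ UTR of Tfrc and in the 5′ UTR of Fth1, Ftl1, Slc40a1 and Alas2. The motif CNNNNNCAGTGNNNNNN was searched on the sense strand of all coding transcripts of GENCODE M21 (GRCm38), and the 5 bases before the loop had to pair with the last 5, with G-U pairs allowed. Capitals mark the loop.
Tfrc, 3′ UTR, chr16:32631220-32631247: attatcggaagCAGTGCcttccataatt
Tfrc, 3′ UTR, chr16:32631599-32631626: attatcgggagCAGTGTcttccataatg
Tfrc, 3′ UTR, chr16:32631664-32631691: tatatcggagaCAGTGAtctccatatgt
Tfrc, 3′ UTR, chr16:32631711-32631738: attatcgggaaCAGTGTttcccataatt
Fth1, 5′ UTR, chr19:9982733-9982760: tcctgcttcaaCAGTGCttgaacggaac
Ftl1, 5′ UTR, chr7:45459779-45459806, minus strand: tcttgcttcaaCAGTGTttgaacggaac
Slc40a1, 5′ UTR, chr1:45925465-45925492, minus strand: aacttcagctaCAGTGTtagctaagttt
Alas2, 5′ UTR, chromosome X, spliced across an intron: tggttcgtcctCAGTGCagggcaacagg
Over the longest coding transcript of 21877 genes, 20 (0.0914%) held the motif in the 5′ UTR and 118 (0.539%) in the 3′ UTR. Tfrc held 4 matches, and Fth1, Ftl1, Slc40a1 and Alas2 held 1 each. Not every annotated transcript holds them. They were in 1 of 3 coding transcripts of Tfrc, 4 of 5 of Fth1 and 1 of 2 of Ftl1. For Slc40a1 it was 1 of 4, and for Alas2 2 of 2. No match was found in the UTRs of the other 5 listed genes, which says only that these letters are not in those windows. A hairpin whose stem departs from this motif would be missed, so these genes, Slc11a2 among them, may still hold an element.

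Library totals ran from 36903560 to 40981012 counts in WT, against 35136327 to 60330410 in mdx/mTR. Dmd averaged 237 ± 6.90 CPM (counts scaled to the size of the library) in WT, against 46.8 ± 7.20 CPM in the mdx/mTR libraries (SD, n = 6 each), with every mdx/mTR library below every WT library. Terc had 2 counts in WT and 0 in mdx/mTR, too few to check the labels. All CPM values here were scaled by the trimmed mean of M-values (TMM). With library totals in place of TMM, the median over all genes moved by 0.16 on the log2 scale, and the share of calls that were higher in mdx/mTR went from 51.6% to 78.2%; small changes below are therefore relative to the TMM scaling. Markers of other cells differed between the groups. Macrophage markers were higher for 10 of 10 genes tested and summed to 96.6 to 166 CPM in WT libraries and 282 to 784 CPM in mdx/mTR libraries. Fibro-adipogenic markers were higher for 7 of 8, from 1750 to 2480 CPM in WT libraries and from 3615 to 5616 CPM in mdx/mTR libraries. Endothelial markers were lower for 4 of 6, at 457 to 591 CPM in WT libraries and 359 to 481 CPM in mdx/mTR libraries, and Schwann cell markers for 4 of 6, at 72.1 to 88.4 and 52.0 to 69.0 CPM. Markers of regenerating fibres were higher for 5 of 6, at 31.1 to 42.5 CPM in WT libraries and 110 to 505 CPM in mdx/mTR libraries. Mature myofibre markers, at 180502 to 201417 CPM in WT libraries and 138055 to 185141 CPM in mdx/mTR libraries, were higher for 1 of 7 and lower for 1 of 7. The part of these shifts in the results below was not tested.

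In mdx/mTR muscle, the mRNA of the exporter Slc40a1 was at 48.9% of its WT level, the ferritin light chain Ftl1 was 1.84-fold higher and transferrin (Trf) 1.42-fold higher. The ferritin heavy chain Fth1, Cp and Slc11a2 were lower by smaller amounts, and Tfrc, Ireb2, Alas1 and Alas2 did not pass the test. All 10 genes passed the filter on low counts. By edgeR's quasi-likelihood test with an adjusted p below 0.05, 2 of the 10 were higher and 4 were lower, where 25.0% and 23.4% of the 13937 genes tested were called in those directions and 48.3% in either. The share of listed genes called was therefore near that of all genes. The median log2 fold change of the 10 genes was -0.09 against 0.01 over all genes tested, and the median size was 0.26 against 0.23. The WT and mdx/mTR libraries did not overlap for 3 of the 10 genes (Slc40a1, Fth1 and Ftl1), against 25.2% of all genes. With library totals alone, 3 genes were higher (Ftl1, Trf and Ireb2) and 1 was lower (Slc40a1). In the authors' deposited table, the same counts, 2 higher and 4 lower, have an adjusted p below 0.05.

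**Figure D1:**
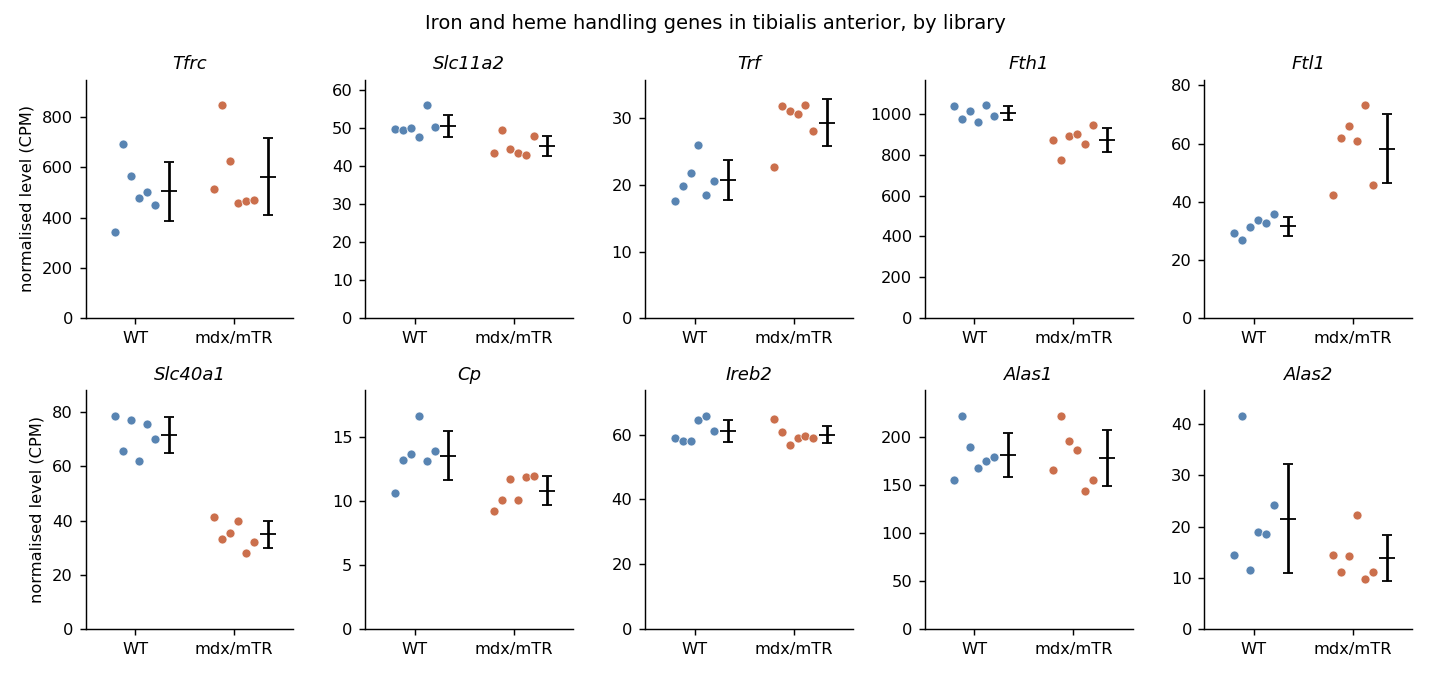
Normalised level (CPM, TMM scaling, axis from 0) of each of the 10 genes in 6 WT and 6 mdx/mTR libraries, 1 point per library, with the mean and SD as a bar beside each group. The groups are apart for Slc40a1, Ftl1 and Fth1 and share a range for the other 7 genes.

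The largest change among the 10 genes was that of Slc40a1, the ferroportin gene (chr1:45908068-45926523, minus strand). In WT replicates 1 to 6 it stood at 78.6, 65.8, 77.0, 62.0, 75.7 and 70.2 CPM, and in mdx/mTR replicates 1 to 6 at 41.2, 33.2, 35.5, 39.7, 27.9 and 32.2 CPM. Every mdx/mTR library lay below every WT library. The exporter's log2 fold change was -1.03 ± 0.09 (SE; edgeR adjusted p 2.1e-06), from 71.6 ± 6.67 to 35.0 ± 4.93 CPM (SD, n = 6 each). It was the only listed gene past the threshold with at least a 2-fold change, where 9.18% of all genes had one, and it fell just short of 2-fold without mdx/mTR replicate 5 (-0.98) and with upper quartile scaling (-0.99). Fewer cells that carry Slc40a1 and less of its mRNA per cell cannot be told apart in a bulk sample. Ferroportin is known from macrophages, whose 10 markers were all higher. Of the other cell types given above, fibro-adipogenic markers were higher for 7 of 8, and endothelial and Schwann cell markers lower for 4 of 6 each. The cells that carry Slc40a1 here, and the part of these shifts in its change, were not tested.

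Cp, the ceruloplasmin gene (chr3:19957054-20009145, plus strand), stood at 10.7, 13.2, 13.7, 16.7, 13.1 and 13.9 CPM in WT and at 9.22, 10.1, 11.7, 10.1, 11.9 and 11.9 CPM in mdx/mTR. The groups overlapped, since WT replicate 1 was as low as mdx/mTR libraries, and 3 of 6 mdx/mTR libraries lay below the lowest WT library. The log2 fold change was -0.32 ± 0.10 (SE; edgeR adjusted p 0.015). With library totals alone it was -0.17 and did not pass (edgeR adjusted p 0.234). Hepatocyte markers, which would mark the tissue that makes plasma ceruloplasmin and transferrin, summed to at most 0.0821 CPM in any library, where 3 counts are worth 0.0460 to 0.0837 CPM. Of these 6 markers, Ttr, Serpina1a and Fgb are listed at 0. The cells that the Cp and Trf mRNA came from were not tested.

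The ferritin chains moved in opposite directions. Fth1, the heavy chain that oxidises iron for storage (chr19:9980598-9985098, plus strand), had 959 to 1041 CPM in WT with a median of 1004, and 774 to 945 CPM in mdx/mTR with a median of 881. All mdx/mTR libraries were below all WT libraries, but the difference was small: the log2 fold change was -0.20 ± 0.06 (SE; edgeR adjusted p 0.0084), and mdx/mTR was at 86.9% of WT. With library totals alone it was -0.05 and did not pass (edgeR adjusted p 0.403).

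Ftl1, the light chain that aids formation of the iron core (chr7:45457944-45459884, minus strand), stood at 29.2, 26.9, 31.3, 33.8, 32.5 and 35.9 CPM in WT and at 42.2, 61.8, 65.9, 61.0, 73.2 and 45.6 CPM in mdx/mTR. Every mdx/mTR library was above every WT library, with replicates 1 and 6 nearest to WT. The light chain's log2 fold change was 0.88 ± 0.12 (SE; edgeR adjusted p 7.6e-05), and 0.80 without mdx/mTR replicate 5, the highest library. When its transcript is cut into every stretch of 50 bases, 78.9% of them are also found in another of 15 GENCODE M21 genes, the most shared being the pseudogene Ftl1-ps1, against 4.01% for Fth1. How the authors counted such reads is not given in the sources used here, so the level of Ftl1 and its change are uncertain.

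A ratio of counts within a library does not depend on the scaling. Per 100 counts of Fth1, WT libraries had 3.15 ± 0.358 counts of Ftl1 and mdx/mTR libraries 6.74 ± 1.59 (SD, n = 6 each). The WT libraries ran from 2.76 to 3.63 and the mdx/mTR libraries from 4.83 to 8.59, so all 6 mdx/mTR libraries were above all WT libraries. The log2 ratio was higher by 1.07 ± 0.16 (SE), with a two-sided exact permutation p of 0.00216, the smallest that 6 against 6 allows, and 0.00433 adjusted over the 2 ratios tested. The groups were known to be apart for both genes, so the ratio is no independent sign of a difference. Its absolute size carries the uncertainty of Ftl1.

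**Figure D2:**
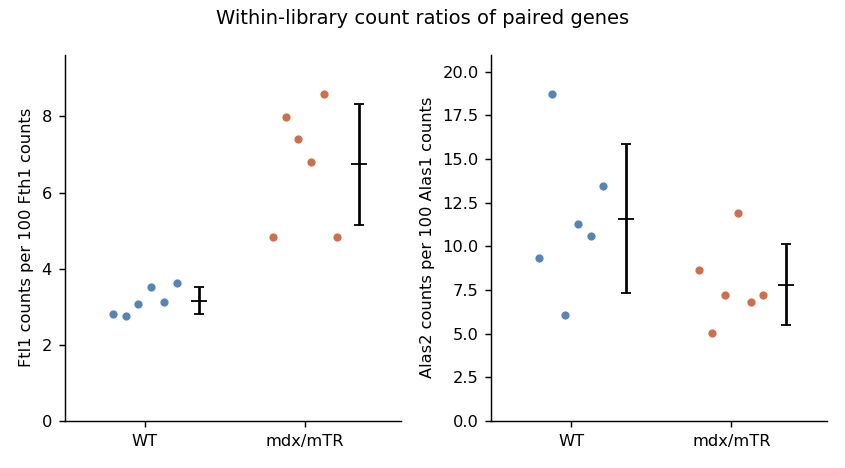
Counts of Ftl1 per 100 counts of Fth1 (left) and of Alas2 per 100 counts of Alas1 (right) in each library, with the mean and SD of 6 libraries beside each group; both axes start at 0. The ferritin ratio is between 2.76 and 3.63 in WT and between 4.83 and 8.59 in mdx/mTR, while the Alas2 ratio overlaps between groups.

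Among the uptake genes, the receptor did not change detectably while its ligand's mRNA rose. Tfrc (chr16:32608920-32632794, plus strand) was variable: it stood at 343, 693, 565, 480, 500 and 452 CPM in WT and at 514, 846, 624, 457, 467 and 468 CPM in mdx/mTR. Replicate 2 was highest in each group, and 1 mdx/mTR library exceeded the highest WT library. The log2 fold change was 0.16 ± 0.17 (SE; edgeR adjusted p 0.488), with a 95% interval from -0.23 to 0.55, so a change of that size in either direction is within the error. It was 0.0022 without mdx/mTR replicate 2 and 0.27 without WT replicate 2.

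Trf (chr9:103204001-103230444, minus strand) stood at 17.6, 19.8, 21.8, 26.1, 18.5 and 20.6 CPM in WT and at 22.7, 31.9, 31.1, 30.6, 32.0 and 28.1 CPM in mdx/mTR. In mdx/mTR, 5 of 6 libraries were above all WT libraries, and replicate 1 was within the WT range. The log2 fold change was 0.50 ± 0.10 (SE; edgeR adjusted p 0.0012). Of the 50-base stretches of Trf, 79.8% also belong to 1 other gene model, Gm20425, so reads of the pair may not be separable.

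Slc11a2 (chr15:100387898-100425072, minus strand) was tightly grouped, at 49.6, 49.6, 49.9, 47.6, 56.0 and 50.2 CPM in WT and 43.3, 49.4, 44.5, 43.6, 43.0 and 47.9 CPM in mdx/mTR. WT replicate 5 was highest, and mdx/mTR replicates 2 and 6 reached the WT range. Its log2 fold change was -0.16 ± 0.05 (SE; edgeR adjusted p 0.0204). It did not pass with upper quartile scaling (-0.12; edgeR adjusted p 0.0754) and was at 0 with library totals alone (edgeR adjusted p 0.999).

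Ireb2, which encodes iron regulatory protein 2 (chr9:54863789-54912530, plus strand), ran from 58.0 to 65.8 CPM in WT with a median of 60.2, and from 56.9 to 64.8 CPM in mdx/mTR with a median of 59.3. The groups overlapped, with a log2 fold change of -0.03 ± 0.05 (SE; edgeR adjusted p 0.679) and a 95% interval from -0.13 to 0.08. With library totals alone it was 0.13 and passed (edgeR adjusted p 0.0469).

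Alas1, the housekeeping form of the rate-limiting enzyme of heme synthesis (chr9:106233455-106248654, minus strand), stood at 156, 222, 190, 168, 175 and 180 CPM in WT and at 166, 222, 196, 187, 144 and 156 CPM in mdx/mTR. The groups overlapped almost fully and replicate 2 was highest in each. The log2 fold change was -0.03 ± 0.11 (SE; edgeR adjusted p 0.849), with a 95% interval from -0.26 to 0.21, and its sign changed with library totals alone (0.13), upper quartile scaling (0.01) and without WT replicate 2 (0.04), mdx/mTR replicate 5 (0.02) or mdx/mTR replicate 6 (0.01).

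Alas2, the erythroid form (chrX:150547375-150570638, plus strand), stood at 14.5, 41.6, 11.5, 19.0, 18.5 and 24.2 CPM in WT and at 14.4, 11.1, 14.2, 22.3, 9.82 and 11.2 CPM in mdx/mTR. WT replicate 2 was the highest of the 12 libraries and mdx/mTR replicate 4 the highest of its group. The log2 fold change was -0.64 ± 0.28 (SE; edgeR adjusted p 0.0704), with a 95% interval from -1.26 to -0.02. The call changed with single libraries. The log2 fold change was -0.35 without WT replicate 2 (edgeR adjusted p 0.204), -0.77 without WT replicate 3 (edgeR adjusted p 0.0308) and -0.83 without mdx/mTR replicate 4 (edgeR adjusted p 0.0228). Alas2 had 11.6 ± 4.26 counts per 100 counts of Alas1 in WT and 7.81 ± 2.33 in mdx/mTR, a log2 difference of -0.54 ± 0.28 (SE) with an exact permutation p of 0.0823, also 0.0823 adjusted. Without WT replicate 3 that difference was -0.71 (exact permutation, adjusted p 0.0216), and without mdx/mTR replicate 4 it was -0.67 (adjusted p 0.0346).

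Markers of erythroid cells, in which Alas2 is known to act, gave little to set beside it. All 6 adult globin entries are listed at 0 in all 12 libraries, so a planned ratio of Alas2 to globin counts was not computed. These zeros do not show that globin RNA was absent: Rpl26, a ribosomal protein gene that every cell uses, is also listed at 0 in all 12. Of the 50-base stretches of Hba-a1, Hba-a2, Hbb-bs and Hbb-bt, 58.3% to 86.9% are shared with 1 other globin gene, and how the authors counted reads that match several genes is not given in the sources used here. Of the other markers, Slc4a1 did not exceed 0.875 CPM and Klf1 0.195 CPM in any library. The part of blood left in the muscle in the Alas2 level was not tested.

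**Figure D3:**
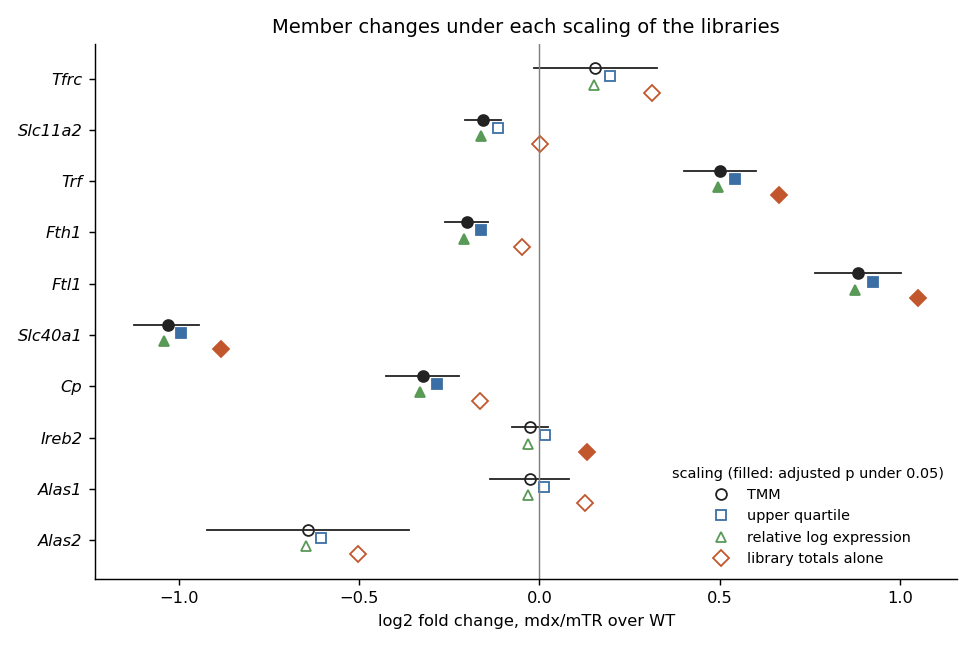
Log2 fold change for each gene (positive values are higher in mdx/mTR) under 4 scalings of the libraries in edgeR, with the SE drawn on the TMM value; filled symbols have an adjusted p below 0.05. Slc40a1 (-1.04 to -0.88), Ftl1 and Trf stay filled under each scaling, while Fth1 and Cp are open with library totals alone, Slc11a2 is open with library totals alone and with upper quartile scaling, and Ireb2 is filled with library totals alone.

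Levels of different genes were compared as CPM per kilobase of the longest coding transcript. In WT the order was Fth1 (671 ± 22.6), Tfrc (103 ± 24.0), Alas1 (53.5 ± 6.73), Ftl1 (32.6 ± 3.36), Slc40a1 (21.2 ± 1.98), Slc11a2 (11.4 ± 0.645), Alas2 (10.6 ± 5.26), Ireb2 (10.6 ± 0.584), Trf (8.07 ± 1.17) and Cp (2.97 ± 0.421), in CPM per kilobase with the SD of 6 libraries. Neighbours from Slc11a2 down to Trf overlapped in range, and all other neighbours in that order were apart. In mdx/mTR, Ftl1 at 60.2 ± 12.4 and Alas1 at 52.5 ± 8.47 overlapped in range, and Trf at 11.4 ± 1.39, Ireb2 at 10.4 ± 0.461, Slc40a1 at 10.4 ± 1.46, Slc11a2 at 10.3 ± 0.613 and Alas2 at 6.79 ± 2.21 formed a run of overlapping neighbours. Slc40a1 thus went from the fifth place, apart from both neighbours, to a level shared with Trf, Ireb2 and Slc11a2. The order rests on transcript length and is uncertain for Ftl1 and Trf, as given above.

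Variation within the groups was compared between the genes as deviations of log2(CPM + 0.5) from the group mean over the 12 libraries, for all 45 pairs. Tfrc and Alas1 went together most closely, with a Pearson r of 0.866 (permutation p 0.00061, adjusted p 0.0274 over 45 pairs) and a Spearman rho of 0.727 (permutation p 0.0129, adjusted p 0.266). Within WT r was 0.936 and within mdx/mTR 0.826 (n = 6 each). Without WT replicate 2 and mdx/mTR replicate 2, the libraries farthest from the median of Tfrc, r was 0.671. No other pair passed after adjustment by r, and none did by rho. Slc40a1 and Cp had r of -0.722 (permutation p 0.00709, adjusted p 0.106) and rho of -0.727 (permutation p 0.0177, adjusted p 0.266), with r of -0.766 in WT, -0.764 in mdx/mTR and -0.671 without mdx/mTR replicates 1 and 5. Cp and Trf had r of 0.765 (adjusted p 0.106) and rho of 0.580 (adjusted p 0.484), Ftl1 and Trf r of 0.682 (adjusted p 0.118) and rho of 0.762 (adjusted p 0.266), with 0.567 and 0.494 for r without the 2 farthest libraries.

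**Figure D4:**
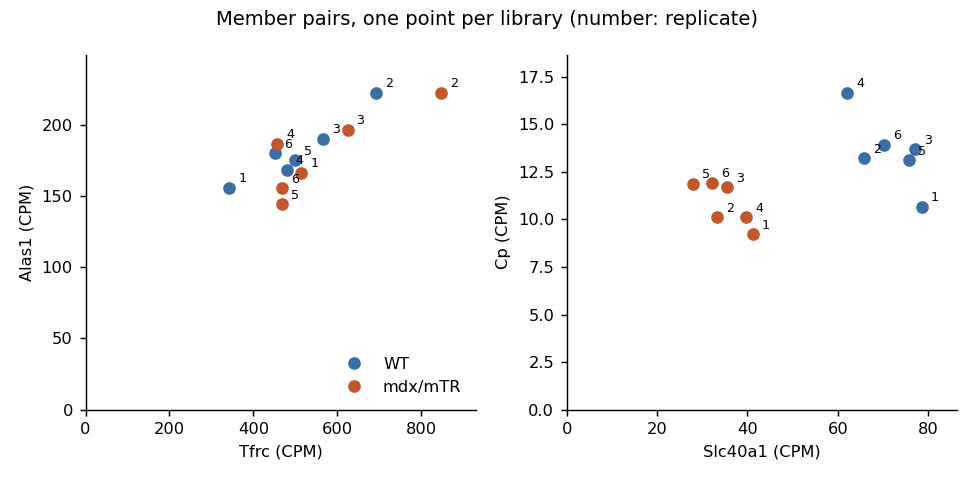
CPM of Tfrc against Alas1 (left) and of Slc40a1 against Cp (right), 1 point per library with its replicate number, WT in blue and mdx/mTR in orange; axes start at 0. Replicate 2 of each group is high for both Tfrc and Alas1. Within each group of these samples, libraries with less Slc40a1 tended to have more Cp, but that pair did not pass over 45 pairs (permutation test, adjusted p 0.106 for r and 0.266 for rho).

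Among all 13937 genes, those most like each listed gene by the same deviations (Pearson r over 12 libraries, given as a measure of likeness) were found. Each r was picked as among the highest of many over few libraries. High values can come from that choice alone, and no link was tested. For Tfrc they were Snap47 (0.957), Papln (0.933) and Cenpa (0.925), and for Alas1 Igsf1 (0.981), the mitochondrial creatine kinase gene Ckmt2 (0.969) and the succinate dehydrogenase gene Sdhd (0.959). Ftl1 was most like Reps2 (0.951), the macrophage marker Cd68 (0.940) and Adam8 (0.933). Cd68 itself was at 2.90 ± 0.739 CPM in WT libraries and 17.1 ± 8.19 CPM in mdx/mTR libraries. Among the 3 genes most like Alas2 were Cmtm8 (0.916) and Frmd7 (0.878). Slc40a1 was most like Mat2b (0.943), Kxd1 (0.908) and the iron-sulfur gene Nfu1 (0.903), and Fth1 like Grina (0.952), Tab2 (0.936) and Arf1 (0.931). Trf was most like Zbtb49 (0.940), Ajuba (0.896) and Orai2 (0.876), and Cp like Ece1 (0.930), Il33 (0.893) and Cxcl14 (0.883). For Slc11a2 they were Rpusd3 (0.907), Coa6 (0.897) and Zdhhc2 (0.893), and for Ireb2 Mphosph8 (0.908), Fam103a1 (0.896) and Ddx52 (0.895).

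The other genes of iron and heme biology were taken from 9 lists by role, with 76 entries of which 67 were tested. Of these, 13 were higher and 20 lower, a share of 49.3% called against 48.3% of all genes, and their median log2 fold change was -0.04. With library totals alone 25 were higher and 9 lower. The counts for each list below stand beside 25.0% of all genes called higher and 23.4% called lower. The lists are small, and no list was tested as a set. Steap2, Hephl1, Lcn2 and Hp were higher by at least 2-fold and called, and Bmp6 was lower by at least 2-fold.

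For uptake and reduction, 2 of 7 genes tested were higher and 1 was lower. Steap2, a metalloreductase, rose from 0.978 ± 0.143 to 2.74 ± 0.846 CPM (log2 fold change 1.48), and Slc39a14, a transporter of iron that is not bound to transferrin, from 21.1 ± 0.485 to 28.2 ± 4.78 CPM (0.42). Steap3, which reduces iron in the transferrin endosome, fell from 50.8 ± 1.99 to 44.6 ± 2.22 CPM (-0.19), a call lost with library totals alone (-0.03). For storage, 0 of 4 were higher and 2 were lower: the iron chaperone Pcbp2 (-0.24) and Ncoa4 (-0.36), the receptor that delivers ferritin to lysosomes. Both calls were lost with library totals alone (-0.08 and -0.21), and 43.1% of the stretches of Ncoa4 are shared with 1 other gene. Pcbp1, also an iron chaperone, was at 113 ± 8.10 CPM in WT libraries and 119 ± 8.82 CPM in mdx/mTR libraries (edgeR adjusted p 0.32) and, of 21 alternatives, passed with library totals alone (0.235; edgeR adjusted p 0.014).

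For export, Hephl1, a ferroxidase like ceruloplasmin, was higher and Heph was not called. Hephl1 had 7 counts in all WT libraries together, at most 2 in any, and 175 in mdx/mTR, a ratio of 17.4 after TMM scaling. Its 95% counting interval, 8.28 to 44.0, pools the libraries and leaves out the variation between them. The edgeR log2 fold change was 3.97, with a 95% interval from 3.07 to 4.87 (edgeR adjusted p 6.8e-06). Every mdx/mTR library, at 0.328 to 0.860 CPM, was above every WT library, none of which exceeded 0.0558 CPM. Heph was at 1.03 ± 0.344 CPM in WT libraries and 0.980 ± 0.151 CPM in mdx/mTR libraries (edgeR adjusted p 0.80). For extracellular binding proteins, 3 of 5 were higher and 0 lower. Lcn2, which binds bacterial iron carriers, went from 0.349 ± 0.0929 to 1.40 ± 0.784 CPM (1.98) and Hp, the hemoglobin binding protein haptoglobin, from 3.89 ± 0.730 to 10.8 ± 6.73 CPM (1.47). The groups overlapped for Hp, and limma-voom did not call it (adjusted p 0.0579). Lrp1, a receptor for heme bound to hemopexin and for many other ligands, had a log2 fold change of 0.67. Lcn2 is also known as a neutrophil product. Neutrophil markers were higher for 2 of 3 tested and summed to 0.695 to 2.17 CPM in WT libraries and 1.87 to 18.6 CPM in mdx/mTR libraries; their part was not tested.

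For iron sensing, 1 of 8 was higher and 2 were lower. Bmp6, a ligand that induces hepcidin in liver, fell from 18.6 ± 3.18 to 9.09 ± 1.68 CPM (-1.04 ± 0.13 SE; edgeR adjusted p 3.9e-05), with all mdx/mTR libraries (6.92 to 11.6 CPM) below all WT libraries (14.8 to 22.8 CPM). Bmp6 was at least 2-fold lower, as Slc40a1 was. Without 1 library its log2 fold change ran from -1.12 to -0.97, and with library totals alone it was -0.89. Fbxl5, which marks iron regulatory protein 2 for breakdown when iron is present, fell from 58.6 ± 2.30 to 48.4 ± 3.58 CPM (-0.28), while Ireb2 itself was not called. Hfe, a partner of the transferrin receptors, rose (0.29). The hepcidin gene Hamp is listed at 0 in all libraries.

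For heme synthesis and the transport it needs, 2 of 16 were higher, 7 lower and 7 not called, with a median log2 fold change of -0.11. Named here are the 3 of smallest p, all of them lower, which do not stand for the whole list. The enzymes Alad, which acts right after the Alas enzymes, and Cpox fell: Alad from 21.7 ± 1.41 to 13.6 ± 1.58 CPM (-0.68 ± 0.07 SE; edgeR adjusted p 1.2e-05) and Cpox from 44.1 ± 1.89 to 33.1 ± 4.08 CPM (-0.41). Abcb10, a mitochondrial membrane transporter, fell from 52.4 ± 2.27 to 40.7 ± 2.07 CPM (-0.36). For these 3 genes, every mdx/mTR library was below every WT library and the call held with library totals alone (-0.52, -0.26 and -0.21). For heme breakdown and transport, 2 of 6 were higher and 1 was lower. Blvrb, a biliverdin reductase, rose from 3.59 ± 0.444 to 6.04 ± 0.746 CPM (0.75) and the transporter Abcg2 from 25.0 ± 2.95 to 38.3 ± 7.43 CPM (0.61). The heme transporter gene Slc48a1 fell (-0.19), a call lost with library totals alone (-0.03). Hmox1, the heme oxygenase induced by heme, was looked at after its values were seen: it stood at 11.4 ± 3.87 CPM in WT libraries and 14.6 ± 4.47 CPM in mdx/mTR libraries (0.36; edgeR adjusted p 0.20).

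For iron-sulfur cluster assembly, 1 of 17 was higher and 6 were lower. The chaperone gene Hspa9 fell from 676 ± 26.1 to 507 ± 36.0 CPM (-0.41), and Isca1, an assembly factor, from 124 ± 4.06 to 96.9 ± 10.3 CPM (-0.36). The groups did not overlap for either gene, although 65.3% of the stretches of Isca1 are shared with 2 other genes. Of the oxygen-binding heme proteins, Cygb (cytoglobin) rose from 18.5 ± 2.58 to 30.0 ± 5.80 CPM (0.70), and Mb (myoglobin) fell from 3130 ± 933 to 2117 ± 599 CPM (-0.56; edgeR adjusted p 0.030). The Mb call was lost in 5 of 12 fits that left out a library, among them WT replicate 2 (-0.38; edgeR adjusted p 0.0664), and with library totals alone (-0.42; edgeR adjusted p 0.0931). WT replicate 2 was also high for Tfrc, Alas1 and Alas2, and for the fast myosin gene Myh1 (17094 CPM against 7864 to 9929 CPM in the other WT libraries). In mdx/mTR, replicate 2 was highest for Tfrc, Alas1 and Myh1 (13061 CPM against 6982 to 11815 CPM in the others), but not for Alas2 or Mb. Myh1 is 1 of the 7 mature myofibre markers and was picked outside the naming rule given below. Of its 50-base stretches, 26.7% are shared with other genes, and its link with the iron and heme genes was not tested.

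**Figure D5:**
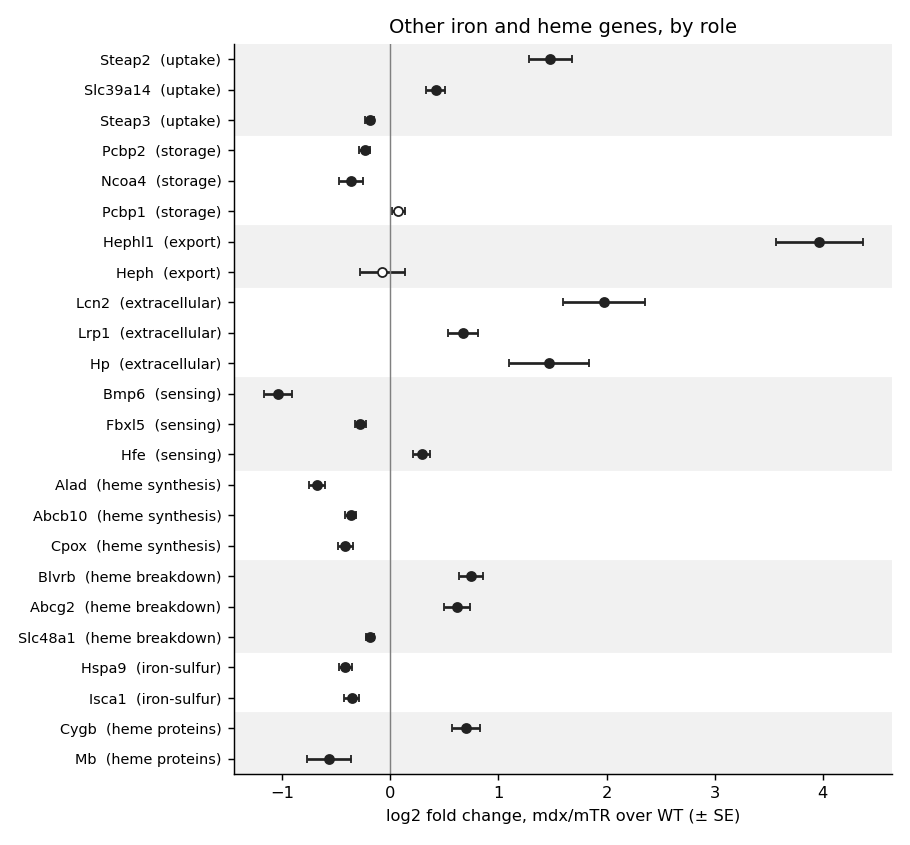
Log2 fold change and SE (TMM scaling; positive values are higher in mdx/mTR) for the other iron and heme genes named by role; filled symbols have an edgeR adjusted p below 0.05. Hephl1, Lcn2, Steap2 and Hp lie farthest to the right, Bmp6 farthest to the left, and the iron-sulfur genes shown are all below 0.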

How the data were processed

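RNA from 12 tibialis anterior samples (6 WT, 6 mdx/mTR), extracted with a miRNEasy kit, was sequenced, per the labels. The authors deposited raw counts per gene symbol. FastQC, STAR and DESeq2 (no versions) and the build mm10 are named in the submitters' processing notes; the counter, annotation and strand handling are not given in the sources used here. A table of the authors' own comparison, per the file headers, holds a mean normalised count signal, log2 fold changes with SE, a test statistic (score) and p-values; only its log2 fold changes and adjusted p-values were used.

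The counts were filtered with filterByExpr, scaled by TMM and fitted over all 12 libraries with edgeR 4.0.16 (quasi-likelihood test, no covariates, Benjamini-Hochberg threshold 0.05). The 13937 genes tested held 99.97% of counts, and 5131 entries had no count. On simulated data for this comparison with 13937 genes, 97% of 200 changed genes were recovered and 10 of 204 calls were false. The real libraries gave 6736 calls (48.3% of genes), and recovery and false calls at that share were not tested. Intervals used SE and residual degrees of freedom, and cover no uncertainty of read assignment. Ratios used exact permutation tests. Transcript lengths, 50-base stretches shared with other genes, coordinates and hairpins came from GENCODE M21 on GRCm38, the assembly also called mm10. The samples' replicate numbers were not used to pair them in the main fit: same-numbered samples correlated at -0.155 to 0.354, over 0.1 for 2 of 6 numbers. Differently numbered samples were not compared, so this check cannot exclude pairing. Alternatives were upper quartile and relative log expression scaling, library totals alone, other filters, DESeq2 1.42.0, limma-voom (limma 3.58.1), a replicate block, an adjusted p of 0.01 and leaving out each library.

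The genes and lists were chosen with earlier results of these data known. Named by rule were the 10 genes, the 3 genes of smallest p in each of the 9 other iron and heme lists and any there called and changed at least 2-fold, and the 3 genes most like each of the 10; some of the genes so named are not reported here. A planned ratio of Alas2 to globin counts was not computed, since all globin entries are listed at 0.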

Additional observations from a re-analysis of the deposited data

Results flagged for a closer look

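Within groups of 6, a library was marked where its gap to the nearest other as a share of the group's range exceeded Dixon's 95% critical value. This held for 4 of 74 gene and group combinations, where chance gives about 3.7. Slc11a2 was at 56.0 CPM in WT replicate 5, with 47.6 to 50.2 CPM in the other WT libraries. Alas2 was at 22.3 CPM in mdx/mTR replicate 4, with 9.82 to 14.4 CPM in the others of its group. WT replicate 2 was low for Cpox, at 40.5 CPM against 44.0 to 45.7 CPM, and high for Mb, at 5021 CPM against 2578 to 2907 CPM.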

How the results depend on the processing

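Ftl1, Trf and Slc40a1 kept their direction and call under all 21 alternatives, with log2 fold changes of 0.80 to 1.05, 0.46 to 0.66 and -1.09 to -0.88. With library totals alone, 1 of the 10 genes was lower; 5596 genes in all were called higher and 1560 lower, with 25 and 9 for the other iron and heme genes; the log2 fold changes of Slc11a2 (7.5e-05), Ireb2 (0.13), Alas1 (0.13) and Heph (0.0864) turned positive. Upper quartile scaling turned Ireb2 (0.0151) and Alas1 (0.0134) positive and left 0 of the 10 genes called and at least 2-fold changed. At an adjusted p of 0.01, 2 of the 10 were lower. Leaving out each library gave 2 to 2 of the 10 higher, 4 to 5 lower and 0 to 1 at least 2-fold changed. It gave log2 fold changes of -0.10 to 0.04 for Alas1 (positive without WT replicate 2, 0.037, mdx/mTR replicate 5, 0.0242, or mdx/mTR replicate 6, 0.0113) and -0.18 to 0.09 for Heph (positive without WT replicate 2, 0.0909). The log2 ratio of Ftl1 to Fth1 ran from 0.99 to 1.16 and that of Alas2 to Alas1 from -0.71 to -0.38. With the replicate block, edgeR called 6420 genes in place of 6736 and changed no call of the 10 genes. The paired exact permutation test of the Ftl1 to Fth1 ratio (1.07) had an adjusted p of 0.0625, the smallest it can give. The alternatives for the Alas2 to globin ratio were not run. Depth limits Hephl1, whose WT level rests on 7 counts, and the erythroid and hepatocyte markers.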
